A study of Homo sapiens with 4 samples.

Results

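The ADAM, ADAMTS, ADAMTS-like (ADAMTSL) and MMP genes, together with the TIMP genes that encode their inhibitors, were examined for H3K4bhb, the beta-hydroxybutyrylated form of a lysine in the tail of histone H3. Members were taken by symbol from the RefSeq annotation of GRCh38, as protein-coding genes on chromosomes 1 to 22 with a span under 1 Mb whose symbol is a family name followed by a number. The rule gave 68 members among 19060 protein-coding genes that met the same limits: 20 ADAM, 19 ADAMTS, 4 ADAMTSL, 22 MMP and 3 TIMP genes. The span limit left out ADAMTSL1, whose 1004318 bp held 7 peaks in the BHBNa + H2O2 list and 4 in the H2O2-alone list; the longest member kept was ADAMTSL3 (386 kb), with 0 peaks in both. The mark was profiled by ChIP-seq, the sequencing of DNA precipitated with an antibody to it, in the human renal tubular epithelial line HK-2. The 2 treatments were H2O2 after pretreatment with BHBNa, the sodium salt of beta-hydroxybutyrate, and H2O2 alone, so both groups carried the oxidant and untreated cells were not analysed here. A treatment was represented by 1 antibody (IP) library and 1 control library, the control being called IgG in the titles and input in the library names. With 1 IP library per treatment there was no replicate error and no test between treatments, and every count below describes these libraries. Peak lists of a histone mark do not allow a check of the cell type.

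ADAM proteins are membrane-anchored enzymes that cut the outer parts of other membrane proteins free, and several members have lost the zinc-binding site and act in adhesion. ADAMTS proteins are secreted, bind the extracellular matrix through thrombospondin repeats, and process proteoglycans, procollagens and von Willebrand factor. ADAMTS-like proteins keep the matrix-binding part without the enzyme. MMPs degrade collagens, gelatin and other matrix proteins, and TIMPs block them and some ADAM and ADAMTS enzymes; in the kidney, both groups are known for their part in matrix turnover after tubular injury.

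The BHBNa + H2O2 list held 11510 peaks and the H2O2-alone list 6251. The IP fragments under each summit, and the control background there, were back-calculated from the deposited fold and p. The lowest background, which scales with IP depth, was 0.102 fragments in the BHBNa + H2O2 list and 0.274 in the H2O2-alone list, 2.68 times as high in the H2O2-alone list. Peaks rested on few fragments, with a median of 2 in the BHBNa + H2O2 list and 4 in the H2O2-alone list. The BHBNa + H2O2 list kept 5970 peaks of exactly 2 fragments, whereas the lowest number in the H2O2-alone list was 3. At the p limit of 0.001, a summit of 2 fragments could not pass over a background of 0.274 or more. A summit of 2 fragments has an exact Poisson 95% interval of 0.242 to 7.22 fragments, and one of 7 fragments an interval of 2.81 to 14.4. These intervals, like the Wilson intervals below, cover counting error only. Fold enrichment is the authors' value for each peak, and since it moves with depth it was not compared between the lists.

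A peak was assigned to a member when its summit lay in the gene span or within 3 kb of it. In the BHBNa + H2O2 list 21 of 68 members had a peak, 30.9% (95% Wilson interval 21.2 to 42.6), against 16.2% of all 19060 genes. In the H2O2-alone list 11 of 68 members had one, 16.2% (9.28 to 26.7), against 8.05% of all genes. Members were longer than the average gene, with a median span of 46.8 kb against 24.3 kb. When each member was set beside the 200 other genes nearest to it in span, those genes had a peak in 24.7% of cases in the BHBNa + H2O2 list and 13.5% in the H2O2-alone list. Both shares of the 68 members exceeded the share of genes of like span, by 6.15 and 2.68 percentage points, and both like-span shares lay inside the members' intervals. The intervals treat genes as equal and independent draws, and genes are not replicates. Whether a like-span share lies inside or outside an interval, here or below, is therefore not a test. Counted as peaks, members held 37 in the BHBNa + H2O2 list and 17 in the H2O2-alone list, where genes of like span gave 25.1 and 12.4. A peak in either list or both was found at 22 members, 32.4%, against 20.0% of all genes and 30.1% of genes of like span, and the other 46 had none.

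**Figure D1:**
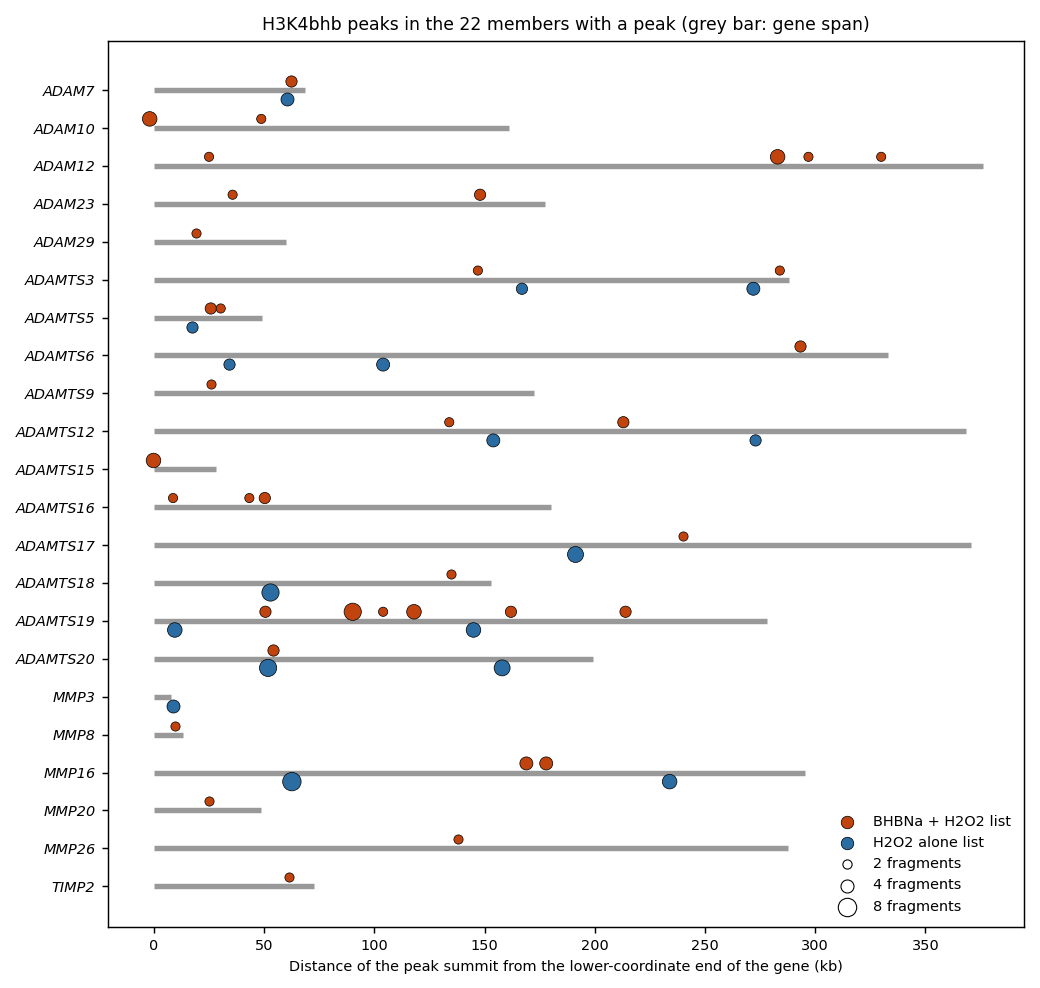
The 22 members with a peak in either list, each drawn as a grey bar of its span in kb from the lower-coordinate end of the gene. Points mark peak summits, above the bar for the BHBNa + H2O2 list and below it for the H2O2-alone list, with area proportional to IP fragments. ADAMTS19 carries 6 peaks of the BHBNa + H2O2 list and 2 of the H2O2-alone list. No member peaks of the lists overlap, and of all peaks in genes 0.413% and 0.872% did.

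The map of summits shows that peaks lay along the length of the genes. In the BHBNa + H2O2 list 35 of the 37 peaks lay inside the gene span and 2 beside it, and in the H2O2-alone list 16 of 17 lay inside. The margins of 3 kb were a small part of the 6.86 Mb searched, so most summits would lie inside wherever they fell. The share inside was not computed for all genes, and these counts do not set the members apart. Of the 37 peaks, 20 rested on 2 fragments, 54.1%, close to the 53.5% of all 4354 peaks in or near genes of that list. A q no higher than 0.05 was found for 7 of the 37 (18.9%, against 14.4% of peaks in genes), and for 2 of 17 in the H2O2-alone list (11.8%, against 6.3%). Median folds of member peaks were 2.72 in the BHBNa + H2O2 list and 3.44 in the H2O2-alone list, against 2.72 and 3.48 for all peaks in genes, so the medians of member peaks were close to those of all gene peaks in the same list.

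Among the ADAMTS genes, 11 of 19 had a peak in the BHBNa + H2O2 list and 8 of 19 in the H2O2-alone list, and all 8 were among the 11. Genes of like span gave 38.6% and 22.7%, against 57.9% (36.3 to 76.9) and 42.1% (23.1 to 63.7) of ADAMTS genes. The family held 21 peaks in the BHBNa + H2O2 list and 13 in the H2O2-alone list, where genes of like span gave 11.7 and 5.97.

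ADAMTS19, a secreted protease that takes part in heart valve development, had the most peaks of any member. The gene spans 278 kb on chromosome 5 (129460298 to 129738683). It held 6 peaks in the BHBNa + H2O2 list and 2 in the H2O2-alone list, where genes of like span held 1.05 and 0.585 on average. Its highest peak, at 129549973 to 129550590, had a fold of 6.59 from 7 IP fragments and a q of 1.28e-05 in the BHBNa + H2O2 list, the highest fold of any member peak in that list. A second peak of that list, at 129578175 to 129578518, had a fold of 5.37 from 5 fragments and a q of 0.000218. The remaining 4 had folds of 2.55 to 3.31 and a q of 0.19 or more. In the H2O2-alone list the peaks had folds of 3.34 and 4.06 from 5 fragments each, with q values of 0.487 and 0.18. The nearest pair of summits between the lists lay 17.3 kb apart.

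The hyalectanases, ADAMTS proteases that cut aggrecan and versican, had a peak in 4 of 7 genes in the BHBNa + H2O2 list and 2 of 7 in the H2O2-alone list, where genes of like span gave 1.6 and 0.78 genes. ADAMTS15 had a single peak, in the BHBNa + H2O2 list, on chromosome 11 at 130447847 to 130448225, 0.576 kb outside the lower-coordinate end of the gene. It had a fold of 5.44 from 5 fragments and a q of 0.000148. Its neighbour ADAMTS8 had 0 peaks in both lists. ADAMTS5, a main aggrecanase of cartilage, had 2 peaks in the BHBNa + H2O2 list, with folds of 3.3 and 2.61 from 3 and 2 fragments, and 1 in the H2O2-alone list, with a fold of 2.95 from 3 fragments. The gene spans 49.2 kb on chromosome 21, and its neighbour ADAMTS1 had 0 peaks in both lists. ADAMTS20 had 1 peak in the BHBNa + H2O2 list, with a fold of 3.05 from 3 fragments, and 2 in the H2O2-alone list, with folds of 3.0 and 3.87 from 7 and 6 fragments. The ADAMTS20 peak with 7 fragments stood over a control background of 1.66 fragments, the highest at any member peak of that list. ADAMTS9 had 1 peak of 2 fragments, in the BHBNa + H2O2 list, and ADAMTS4 had 0 in both lists.

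Of the 3 procollagen N-proteinases, which trim fibrillar procollagens, ADAMTS3 alone had peaks, 2 in the BHBNa + H2O2 list and 2 in the H2O2-alone list. The BHBNa + H2O2 peaks rested on 2 fragments each (folds 2.58 and 2.56), and the H2O2-alone peaks on 3 and 4 (folds 2.86 and 3.65). ADAMTS2 and ADAMTS14 had 0 peaks in both lists, although ADAMTS2 spans 235 kb and 59.0% and 38.0% of genes of like span had a peak in the BHBNa + H2O2 and H2O2-alone lists.

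The remaining ADAMTS genes had a peak in 6 of 9 cases in the BHBNa + H2O2 list and 5 of 9 in the H2O2-alone list, where genes of like span gave 4.2 and 2.55. ADAMTS12, a protease of cartilage oligomeric matrix protein, had 2 peaks in each list. Those of the BHBNa + H2O2 list had folds of 2.64 and 3.61 from 2 and 3 fragments, the second with a q of 0.0484, and those of the H2O2-alone list had folds of 3.07 and 2.85 from 4 and 3 fragments. ADAMTS16 had 3 peaks in the BHBNa + H2O2 list and 0 in the H2O2-alone list. They lay within 50.3 kb of the lower-coordinate end, and the highest, at 5190375 to 5190749 on chromosome 5, had a fold of 3.62 from 3 fragments and a q of 0.0484. The summit at 5148998 also lay in the antisense RNA gene ADAMTS16-AS1, and a histone mark carries no strand.

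ADAMTS18 had 1 of the 2 H2O2-alone member peaks whose q was at most 0.05. Its BHBNa + H2O2 peak rested on 2 fragments, 2.57-fold over background, with a q of 0.326. The H2O2-alone peak at 77334629 to 77334929 on chromosome 16 had a fold of 5.17 from 7 fragments and a q of 0.0129, the highest fold of any member in that list. ADAMTS17 and ADAMTS6, both linked to fibrillin microfibrils, each had 1 peak in the BHBNa + H2O2 list, of 2 and 3 fragments. ADAMTS17 had 1 H2O2-alone peak, with a fold of 4.29 from 6 fragments, and ADAMTS6 had 2 in that list, with folds of 3.02 and 3.64 from 3 and 4 fragments. ADAMTS7, ADAMTS10 and ADAMTS13, the protease of von Willebrand factor, had 0 peaks in both lists.

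**Figure D2:**
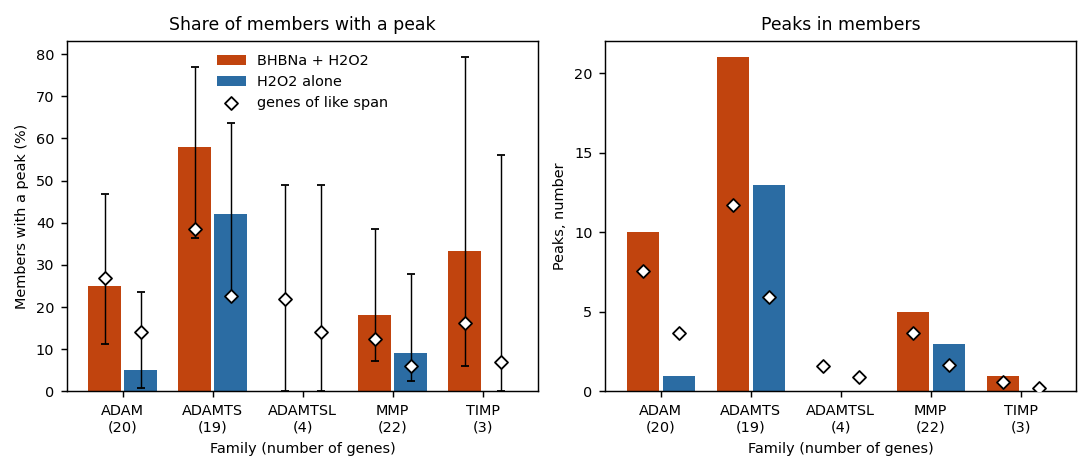
Left, the share of genes of each family with a peak (bars, percent, with 95% Wilson intervals), and right, the number of peaks in each family, with the BHBNa + H2O2 list left of the H2O2-alone list. White diamonds stand for the 200 genes nearest in span to each member. They give the mean share on the left and, on the right, the mean peaks per gene added over the members of the family. The ADAMTS bars, 57.9% and 42.1%, stand above their diamonds at 38.6% and 22.7%, and the ADAM bar of the H2O2-alone list, 5.0%, stands below its diamond at 14.0%.

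The ADAM genes had a peak in 5 of 20 cases in the BHBNa + H2O2 list, 25.0% (11.2 to 46.9), and in 1 of 20 in the H2O2-alone list, 5.0% (0.888 to 23.6). Genes of like span gave 26.9% and 14.0%. Among the 12 members with proteinase activity, ADAM10 and ADAM12 had peaks, in the BHBNa + H2O2 list and not in the H2O2-alone list. At the shares of genes of like span, 2.63 and 1.22 of the 12 would have one, so neither count was above that background. ADAM12, which cleaves binding proteins of insulin-like growth factor, spans 376 kb on chromosome 10 (126012391 to 126388477) and had 4 peaks, where genes of like span had 1.44 in that list and 0.855 in the H2O2-alone list. Its highest peak, at 126295533 to 126296256, was 724 bp wide and had a fold of 5.26 from 5 fragments and a q of 0.000545, and the other 3 rested on 2 fragments each. ADAM10, the sheddase of Notch receptors and an alpha-secretase of the amyloid precursor protein, had a peak at 58586684 to 58586959 on chromosome 15 with a fold of 4.78 from 5 fragments and a q of 0.00658. It lay 1.93 kb outside the gene, past the end of transcription, 163 kb from the start site. A second ADAM10 peak, inside the gene, rested on 2 fragments. ADAM17, which releases tumour necrosis factor from the membrane, had 0 peaks in both lists.

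Of the 8 ADAM genes without the zinc-binding motif, 3 had a peak in the BHBNa + H2O2 list and 1 in the H2O2-alone list, where genes of like span gave 2.76 and 1.57. ADAM23, a neuronal receptor of LGI1, had 2 peaks in the BHBNa + H2O2 list, with folds of 2.61 and 3.3 from 2 and 3 fragments, and 0 in the H2O2-alone list. ADAM29, a testis gene, had 1 peak of 2 fragments in the BHBNa + H2O2 list. ADAM7, a gene of the epididymis, was the ADAM member with a peak in both lists. Its summits lay 1.78 kb apart, at 24503280 in the BHBNa + H2O2 list (fold 3.4 from 3 fragments, q of 0.129) and at 24501496 in the H2O2-alone list (fold 3.3 from 4 fragments, q of 0.494), and both also lay in the antisense RNA genes ADAM7-AS1 and ADAM7-AS2. The neighbouring ADAM9, ADAM32, ADAM18 and ADAM2, which together reach over 841 kb of chromosome 8, had 0 peaks in both lists, where genes of their spans gave 1.92 and 0.98 peaks. No peak lay between these 4 genes either.

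Among the MMP genes, which were short (median span 12.9 kb), 4 of 22 had a peak in the BHBNa + H2O2 list and 2 of 22 in the H2O2-alone list, 18.2% (7.31 to 38.5) and 9.09% (2.53 to 27.8). Genes of like span gave 12.4% and 5.93%. MMP16, a membrane-type enzyme of 295 kb on chromosome 8 (88032011 to 88327483), was the 1 MMP gene with peaks in both lists, 2 in each. In the BHBNa + H2O2 list they had folds of 3.56 and 3.92 from 4 fragments each and q values of 0.186 and 0.0633. Its H2O2-alone peak at 88094464 to 88094817 had a fold of 4.79 from 8 fragments, the most of any member peak in that list, and a q of 0.03, and the other had a fold of 3.44 from 5. Summits of the lists in MMP16 lay at least 56.7 kb apart. The other membrane-type genes, MMP14, MMP15, MMP17, MMP24 and MMP25, and the gelatinases MMP2 and MMP9 had 0 peaks in both lists. At the shares of genes of like span, 1.12 and 0.59 of the 6 membrane-type genes would have one. For the 2 gelatinases these values were 0.13 and 0.05.

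Of the MMP genes, 9 stand side by side on chromosome 11 within 435 kb (102520508 to 102955732). In this region the BHBNa + H2O2 list had 4 peaks and the H2O2-alone list 2, or 9.07 and 4.53 per Mb. The 1 Mb on either side of the region held 9 and 5 peaks, or 4.5 and 2.5 per Mb, a difference that was not tested. Peaks assigned to genes here were at MMP8, the collagenase of neutrophils, and MMP20, the enamel protease, in the BHBNa + H2O2 list, and at MMP3, stromelysin, in the H2O2-alone list. The MMP8 and MMP20 peaks rested on 2 fragments each, with a q of 0.326. The MMP3 peak had a fold of 3.49 from 4 fragments and a q of 0.348, and lay 1.02 kb outside the higher-coordinate end of a gene of 7.81 kb. The interstitial collagenases MMP1 and MMP13, and MMP7, MMP10, MMP12 and MMP27, had 0 peaks in both lists. The 9 genes held 2 and 1 assigned peaks, where genes of like span gave 0.545 and 0.165, and the difference was not tested. MMP26, a matrilysin of 288 kb on the same chromosome, had 1 peak of 2 fragments in the BHBNa + H2O2 list.

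The TIMP genes had 1 peak, in TIMP2, which encodes an inhibitor that also takes part in the activation of proMMP2. It lay in the BHBNa + H2O2 list with a fold of 2.72 from 2 fragments. TIMP3 and TIMP4 had 0 peaks in both lists. For the 3 TIMP genes, genes of like span gave 0.565 and 0.22 peaks. ADAMTSL2, ADAMTSL3, ADAMTSL4 and ADAMTSL5 had 0 as well, where genes of their spans gave 1.6 and 0.9 peaks. Most of that expectation came from ADAMTSL3, since genes of its span had 1.43 and 0.84 peaks on average.

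**Figure D3:**
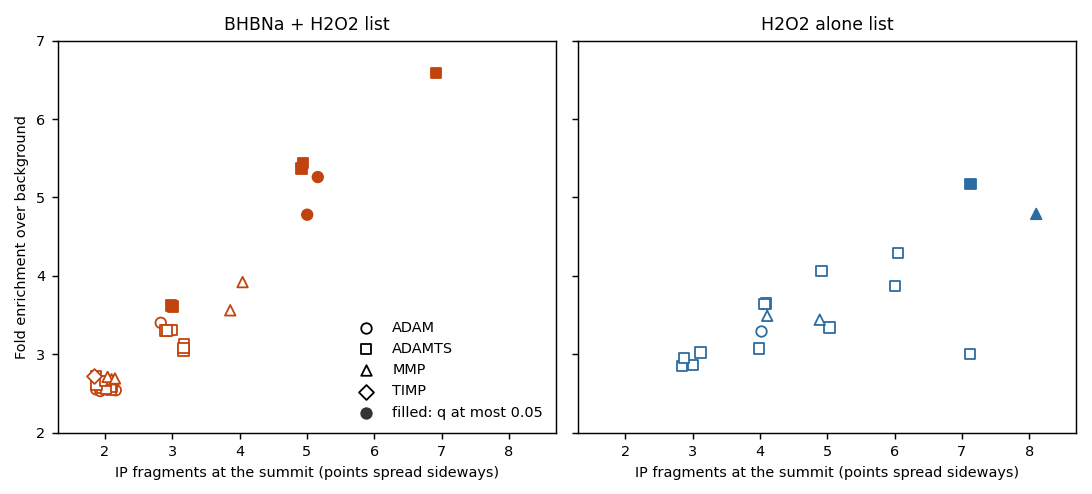
Fold enrichment over background of each member peak against the IP fragments at its summit, with the BHBNa + H2O2 list on the left and the H2O2-alone list on the right; symbols give the family and filled symbols a q of at most 0.05. All 20 peaks of 2 fragments belong to the BHBNa + H2O2 list, since 2 fragments could not pass the p limit in the H2O2-alone list. In the BHBNa + H2O2 list a q of at most 0.05 occurs from 3 fragments on, while in the H2O2-alone list the filled points have 7 and 8.

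The limit on fragments set which members counted, as the plot of fold against fragments shows. Of the 21 members with a peak in the BHBNa + H2O2 list, 9 had peaks of 2 fragments alone: ADAM29, ADAMTS3, ADAMTS9, ADAMTS17, ADAMTS18, MMP8, MMP20, MMP26 and TIMP2. With at least 3 fragments required, 12 members had a peak in the BHBNa + H2O2 list (17.6%, against 8.59% of all genes and 13.7% of genes of like span). The 11 members of the H2O2-alone list stayed (16.2%, against 8.05% and 13.5%). This was fixed in advance, since every peak of that list had at least 3 fragments. Under that limit ADAMTS genes numbered 7 of 19 in the BHBNa + H2O2 list, with 11 peaks, and 8 of 19 in the H2O2-alone list, with 13 peaks. At the shares of genes of like span, 4.18 and 4.3 of the 19 would have such a peak. Genes of like span gave 5.32 and 5.97 peaks for the family.

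At a q of at most 0.05, 6 members had a peak in the BHBNa + H2O2 list: ADAM10, ADAM12, ADAMTS12, ADAMTS15, ADAMTS16 and ADAMTS19. This was 8.82% of members, against 3.14% of all genes and 4.56% of genes of like span. In the H2O2-alone list ADAMTS18 and MMP16 had one, 2.94% of members, against 0.687% of all genes and 0.949% of genes of like span. At that limit 0 members were in both lists, and since 0.115% of all genes and 0.213% of genes of like span were, fewer than 1 member would be at these shares. In the BHBNa + H2O2 list 3 fragments sufficed for a q of 0.0484, whereas the ADAMTS20 peak of 7 fragments in the H2O2-alone list had a q of 0.494.

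**Figure D4:**
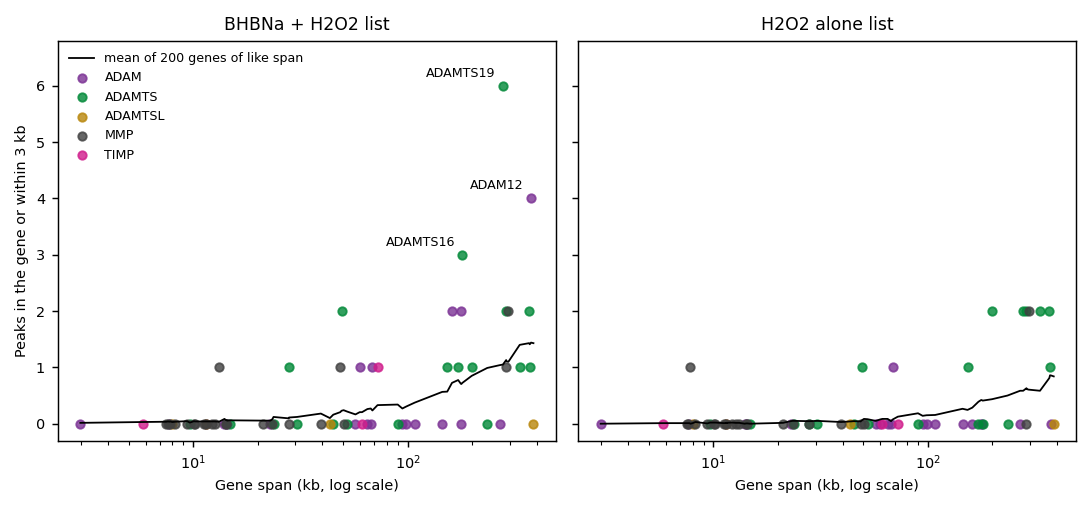
Peaks in each member gene or within 3 kb of it against gene span in kb on a log scale, with the BHBNa + H2O2 list on the left and the H2O2-alone list on the right; colours give the family and the line is the mean of the 200 genes nearest in span to each member. ADAMTS19 (6), ADAM12 (4) and ADAMTS16 (3) stand highest in the BHBNa + H2O2 list, and most members under 30 kb hold 0 peaks.

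Genes with peaks were longer than those without, among members and among all genes. Members with a peak in the BHBNa + H2O2 list had a median span of 178 kb and those without 21.1 kb, and in the H2O2-alone list the medians were 278 and 28.0 kb. Over all genes the medians were 112 and 18.8 kb in the BHBNa + H2O2 list and 159 and 21.4 kb in the H2O2-alone list. Among the 20 members of 100 kb or more, 14 had a peak in the BHBNa + H2O2 list and 8 in the H2O2-alone list, where genes of like span gave 11.8 and 7.36. Of the 48 shorter members, 7 and 3 had a peak, where genes of like span gave 5.05 and 1.81. Genes with a peak also lay where protein-coding genes are sparser, again in both sets. Counted over the gene and 1 Mb on either side, the median of members with a peak was 4.63 genes per Mb in the BHBNa + H2O2 list, against 9.45 for members without a peak. In the H2O2-alone list the medians were 3.5 and 8.97. Over all genes they were 6.84 and 12.7 in the BHBNa + H2O2 list and 5.45 and 12.0 in the H2O2-alone list. ADAMTS genes averaged 7.96 genes per Mb and genes of like span 10.4. When genes were matched on both span and local gene density, a setting added after the data were seen, they had a peak in 37.9% of cases for the ADAMTS family in the BHBNa + H2O2 list and 24.4% in the H2O2-alone list. They gave 12.4 and 7.0 peaks, against the 21 and 13 observed.

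The ADAMTS genes also held more peaks than their own surroundings, 6.92 per Mb in the BHBNa + H2O2 list and 4.28 in the H2O2-alone list. The 1 Mb on either side held 3.85 and 1.79 per Mb, with shared flanks counted once and members left out. A single gene, ADAMTS19, held 6 of the 21 ADAMTS peaks in the BHBNa + H2O2 list and 2 of the 13 in the H2O2-alone list. The ADAM genes had 4.73 and 0.473 per Mb, against 3.42 and 1.35 beside them. The MMP genes had 4.65 and 2.79 per Mb, against 4.27 and 1.54. The difference between families was not tested, since genes are not replicates and each list comes from 1 library.

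Peaks in both lists were found at 10 members: ADAM7, ADAMTS3, ADAMTS5, ADAMTS6, ADAMTS12, ADAMTS17, ADAMTS18, ADAMTS19, ADAMTS20 and MMP16. This was 14.7% of members (8.19 to 25.0), against 4.21% of all genes and 8.12% of genes of like span. Of the 10, 8 were ADAMTS genes, a family with a median span of 153 kb. These 8 were 42.1% of the 19 ADAMTS genes (23.1 to 63.7), against 14.5% of genes of like span. Matching on span and local gene density gave 15.3%, and the difference was not tested. The 10 made up 47.6% of BHBNa + H2O2 members with a peak and 90.9% of H2O2-alone ones, where genes of like span gave 32.9% and 60.2%. With at least 3 fragments required, 7 of the 10 remained in both lists, without ADAMTS3, ADAMTS17 and ADAMTS18. These were 10.3% of members, against 2.81% of all genes and 5.18% of genes of like span. Of the 37 peaks in the BHBNa + H2O2 list and the 17 in the H2O2-alone list, 0 overlapped a peak of the other list by 1 bp or more, and no summits lay within 1 kb of each other. Overlap was rare over all peaks in genes, 0.413% in the BHBNa + H2O2 list and 0.872% in the H2O2-alone list, and 0.85% and 1.79% had a summit of the other list within 1 kb. At these shares fewer than 1 member peak would meet either rule, so the counts of 0 do not set the members apart. Summits within 10 kb of one in the other list numbered 3 in each, at ADAM7 (1.78 kb), ADAMTS20 (2.36 kb) and ADAMTS5 (8.38 kb). These were 8.11% and 17.6% of member peaks, against 4.57% and 9.3% of all peaks in genes.

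RefSeq start sites were at hand for 41 of the 68 members, and no summit lay close to them. Within 1 kb and within 3 kb of them, 0 of 41 had a summit in both lists, against 0.299% of 15047 genes in the BHBNa + H2O2 list and 0.0798% in the H2O2-alone list within 1 kb, and 1.38% and 0.585% within 3 kb. At these shares fewer than 1 member would have one, so a difference was not detectable. Within 5 kb, ADAMTS3 (4.26 kb into the gene) and MMP8 (3.45 kb) had a peak in the BHBNa + H2O2 list, both of 2 fragments. That was 2 of 41, against 2.74% of the 15047 genes, and the H2O2-alone list had 0 of 41, against 1.06%. The counts cover 1 listed start site per gene, so other promoters of these 41 members were not examined. ADAMTS15 and MMP3, whose peaks lay 0.576 and 1.02 kb outside a gene end, were not among the 41. Their strands were not at hand, so these counts cannot tell whether those 2 peaks lay at start sites.

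Partners of the families were examined as a second list of 53 genes with other metalloproteinases, activating convertases, inhibitors, regulators of shedding and substrates. Of these, 16 had a peak in the BHBNa + H2O2 list and 9 in the H2O2-alone list, or 30.2% and 17.0%, where genes of like span gave 27.4% and 15.0%. LGI1, the secreted ligand of ADAM22 and ADAM23, had the highest fold of the BHBNa + H2O2 list among them, 6.92 from 7 fragments with a q of 1.6e-06, on chromosome 10 at 93778318 to 93778574. Its H2O2-alone peak had a fold of 3.43 from 4 fragments and a q of 0.407. ADAM22 had 0 peaks in both lists, although 61.5% and 45.0% of genes of like span had one. ADAM23 had 2 and 0, where 51.5% and 30.0% of genes of like span had one. VWF, the substrate of ADAMTS13, reached 4.62-fold with a q of 0.0131 in the BHBNa + H2O2 list. PCSK5, a convertase, had a highest fold of 3.63 in the BHBNa + H2O2 list and 3.14 in the H2O2-alone list. TLL2, PLAUR, the urokinase receptor, and TSPAN15, a tetraspanin partner of ADAM10, each had a highest fold of 3.63 from 3 fragments in the BHBNa + H2O2 list and none in the H2O2-alone list. In the H2O2-alone list the highest folds were those of TLL1, at 4.23, the fibrillin gene FBN2, at 4.15, THSD4, an ADAMTS-like protein, at 3.64, and APP, at 3.61. FBN2, THSD4 and PZP, a protease inhibitor related to alpha-2-macroglobulin, had peaks in both lists too, with highest folds of 3.39, 2.72 and 2.59 in the BHBNa + H2O2 list and 4.15, 3.64 and 2.95 in the H2O2-alone list.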

How the data were processed

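MACS2 2.2.7.1, Bowtie2 2.4.2, fastp 0.20.1, DiffBind, HOMER and ChIPseeker are named in the submitters' processing notes, with the build GRCh38; their roles and settings are not given in the sources used here. Per peak, the authors deposited a ratio (fold enrichment at the summit), a score, and the −log10 of p and of q. The 2 deposited files of a treatment held the same peaks, with starts counted from 0 and from 1, so each treatment gave 1 list. The deposited score equalled 10 times the −log10 p, rounded down, and the lowest −log10 p was 3.0, a p of 0.001, with no limit on q.

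Fragments at the summit (k) and background were recovered as fold = (k + 1)/(background + 1) and p = Poisson chance of more than k, with agreement to 0.001 in −log10 p (wider in proportion above 10) for 100% of peaks. Read totals are not known, so depth was read from the lowest background. Genes of like span were the 200 non-members nearest in span, 100 shorter and 100 longer; for noncoding genes, those of the same kind. Alternatives were a q of at most 0.05, at least 3 fragments, other margins, any overlap, 20 bins of span, other overlap rules and, added after seeing the data, matching on local gene density. The members and lists were chosen with earlier results of these data known. Every member with a peak is named; of the partner list, up to 4 per peak list with the highest fold (all that tie) and those in both lists. ERBB4 and NRG1, of the 55 partners listed, exceeded the span limit. No genome was used, so exons, introns and peak sequences are not reported. Python 3.11.15, numpy 2.4.6, pandas 2.3.3, scipy 1.17.1 and matplotlib 3.10.9 were used, and scripts were tested on simulated data.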

Additional observations from a re-analysis of the deposited data

How the results depend on the processing

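No paired analysis was possible because each treatment held 1 IP library, and no replicate could be left out. Stricter limits lowered the counts, by construction. At a q of at most 0.05, 6 members with 7 peaks remained in the BHBNa + H2O2 list, 2 with 2 in the H2O2-alone list and 0 in both lists. With at least 3 fragments, 12 members with 17 peaks remained in the BHBNa + H2O2 list. The H2O2-alone list, which held no peak of fewer fragments, kept 11 and 17. Margins of 0, 1 and 10 kb and any overlap in place of the summit gave 20 to 22 members in the BHBNa + H2O2 list, 10 or 11 in the H2O2-alone list and 10 in both. The excess over genes of like span was 3.96 to 7.05 percentage points in the BHBNa + H2O2 list and 1.32 to 2.68 in the H2O2-alone list over all alternatives run. Counting intervals were computed for the main setting only, and the excess was not tested. The number of overlapping member peaks was 0 under the 5 rules run, under which 0.318% to 1.79% of all peaks in genes met the rule and fewer than 1 member peak would at these shares.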

Other observations

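Genes named after the families but outside the rule also held peaks. Of 13 long noncoding RNA genes named for a family member, 5 had a peak in the BHBNa + H2O2 list and 3 in the H2O2-alone list, where long noncoding RNA genes of like span gave 2.3 and 1.74 (10.0% and 5.88% of all such genes had one). The peaks of ADAM7-AS2 and ADAMTS16-AS1 were ones already counted at ADAM7 and ADAMTS16. ADAMTS9-AS2 spans 327 kb of chromosome 3 (64684870 to 65011468) and overlaps the higher-coordinate end of ADAMTS9, at 64688000. It had 4 peaks in the BHBNa + H2O2 list, the highest at a fold of 4.76 from 7 fragments, with a lowest q of 0.0112. It had 0 in the H2O2-alone list, and a background for its span alone was not computed. ADAM7-AS1 had 2 in each list, among them the summits in ADAM7, so the counts of 5 and 3 include 2 genes that share a summit. MMP20-AS1, in the chromosome 11 MMP region, had 1 peak in each list. Its folds were 2.56 from 2 fragments in the BHBNa + H2O2 list and 2.85 from 3 in the H2O2-alone list. Of 8 pseudogenes and 8 transcribed pseudogenes of the families, 0 had a peak in either list, and genes of like kind and span gave fewer than 1. The readthrough gene MMP24-AS1-EDEM2 (163 kb) had 4 peaks in the BHBNa + H2O2 list, with a highest fold of 4.77 from 6 fragments. It had 0 in the H2O2-alone list, and MMP24 itself had 0 in both. Genes of the span of ADAM10 (161 kb) held 0.725 and 0.285 peaks on average in the BHBNa + H2O2 and H2O2-alone lists. ADAMTSL1, just over the span limit, had a highest fold of 3.61 (q of 0.0484) in the BHBNa + H2O2 list and 3.74 (q of 0.228) in the H2O2-alone list. Of protein-coding genes of 400 to 1000 kb, 86.0% and 70.2% had a peak in these lists. TIMP1, on chromosome X, and MMP23B had 0 peaks in both lists.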
